A study of Mus musculus with 24 samples.

Results

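The nuclear genes of oxidative phosphorylation were followed across 24 CUT&Tag libraries from mouse group 3 innate lymphoid cells (ILC3s) of the small intestine. Members were nuclear protein-coding genes of the RefSeq annotation of mouse assembly GRCm38.p6, the mm10 build, whose symbol begins with Ndufa, Ndufb, Ndufc, Ndufs, Ndufv, Sdh followed by a to d, Uqcr, Cox followed by 4 to 8, or Atp5. That rule found 100 genes among the 21627 protein-coding genes on the autosomes and the X chromosome. By their known roles, 37 encode subunits of complex I, 4 of complex II, 8 of complex III, 11 of complex IV and 17 of complex V. A further 10 are isoforms or gene copies whose known use is restricted to certain tissues or settings, such as Cox8b of muscle. The other 13 are caught by their symbols although they are no subunits: the assembly factors Ndufaf1 to Ndufaf8 and Sdhaf1 to Sdhaf4, and Cox7a2l, which helps join complexes III and IV.

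Oxidative phosphorylation passes electrons from NADH and succinate through complexes I to IV to oxygen, pumps protons across the inner mitochondrial membrane, and lets complex V (ATP synthase) make ATP from their return. Its subunits come from both genomes, so the nuclear genes have to be expressed in step with the few subunits that mitochondrial DNA encodes. Most of the nuclear genes are active in nearly every cell and start from CpG-rich promoters, many of which are known targets of the factors NRF1, GABP and YY1. CFP1, the product of Cxxc1, binds unmethylated CpG dinucleotides and belongs to the SETD1 complexes that place H3K4me3, the histone mark of active promoters. CUT&Tag cuts and tags the DNA beside an antibody bound in the nucleus, and a peak is a stretch where the tags pile up.

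The study compared mice with both Cxxc1 alleles floxed and no Cre (Cxxc1flox/flox, here WT) with mice that carry the same floxed alleles and a Cre (here KO). From each genotype, CCR6+, NKp46+ and DN ILC3s were sorted, and each subset gave 2 libraries for CFP1 and 2 for H3K4me3, from 100000 cells each. The mice are labelled as 6 to 8 weeks old, although the protocols also speak of aged and young animals and of a culture medium. Nothing in the labels ties a library to an animal, so each p-value below measures the spread between libraries only.

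In the deposited peak lists, CFP1 libraries held 4574 to 7983 peaks in WT and 714 to 8881 in KO, and H3K4me3 libraries 12838 to 15397 and 11794 to 18127. The lists give no read totals, so depth is unknown. Among the KO CFP1 libraries, DN replicate 2 (8881 peaks) and NKp46+ replicate 2 (4891) stood apart from the other 4, which had 714 to 1312. Results for CFP1 are given with and without them where the call differs. The targeted gene, Cxxc1, had a CFP1 peak at a gene end in 2 WT and 0 KO libraries and H3K4me3 in all 12, and a peak list does not show whether the floxed exons were deleted. Of 8 ILC3 marker genes, 2 to 5 carried H3K4me3 per library. Id2 and Kit held it in all 12 libraries, Il22, Il1r1 and Gata3 in none at their gene ends, Il7r in 6 WT and 4 KO, and Il23r in 6 and 1, so 5 of the 6 KO libraries labelled ILC3 lacked the mark at Il23r. Of the CCR6+ markers, Ccr6 held it in 4 WT and 0 KO libraries, and Cd4 and Nrp1 in all 12. Of the NKp46+ markers, Ncr1, which encodes NKp46, held it in 4 and 2, Klrb1c in 3 and 1, and Tbx21 in all 12. For 6 T cell genes the range was 1 to 6 per library. Cd3e and Cd3d held it in 6 WT and 5 KO libraries, Cd3g in 5 and 4, and Cd5 in 2 and 2. Cd8a held it in 4 and 2 and Cd8b1 in 5 and 1. For 6 epithelial genes the range was 1 to 4: Epcam in all 12, Cdh1 in 5 and 5, Krt18 in 0 and 3, Krt8 in 0 and 2, and Krt20 and Vil1 in none. For 5 stromal and endothelial genes it was 1 to 3: Pdgfrb in 6 and 1, Pecam1 in 4 and 1, Col1a1 in 3 and 6, and Col1a2 and Cdh5 in none. It was 0 to 3 for 5 myeloid genes and 0 to 2 for 5 B cell genes. How far other cells contributed to these libraries was not tested.

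Presence was scored at gene ends: a library held a gene if any peak came within 1000 b of the annotated start or end of that gene. Of the 100 members, 60 share such a window with another gene, and a peak there counted for both.

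H3K4me3 marked the same large majority of members in both genotypes. Between 86 and 89 members held the mark in each library, with a mean of 87.2 ± 0.408 in WT and 87.2 ± 1.17 in KO (SD, n = 6), and the mean difference over the 6 pairs of matching subset and replicate number was 0 (SE 0.577). All 12 libraries held it at 84 members, and no library at 11. By comparison, 45.4% to 53.4% of all protein-coding genes held H3K4me3 in a library. Complex I had the mark in all 12 libraries at 35 of 37 genes, complex II at 4 of 4, complex III at 8 of 8, complex IV at 8 of 11, complex V at 16 of 17, and the assembly group at 13 of 13.

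CFP1 peaks were at fewer members and differed between genotypes. WT libraries held CFP1 at 39 and 37 members in CCR6+ cells, 38 and 29 in NKp46+ cells and 47 and 35 in DN cells (replicates 1 and 2). KO libraries held it at 8 and 9, 2 and 17, and 5 and 36. Every KO library was below every WT library except DN replicate 2, whose 36 members lay within the WT range of 29 to 47.

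**Figure D1:**
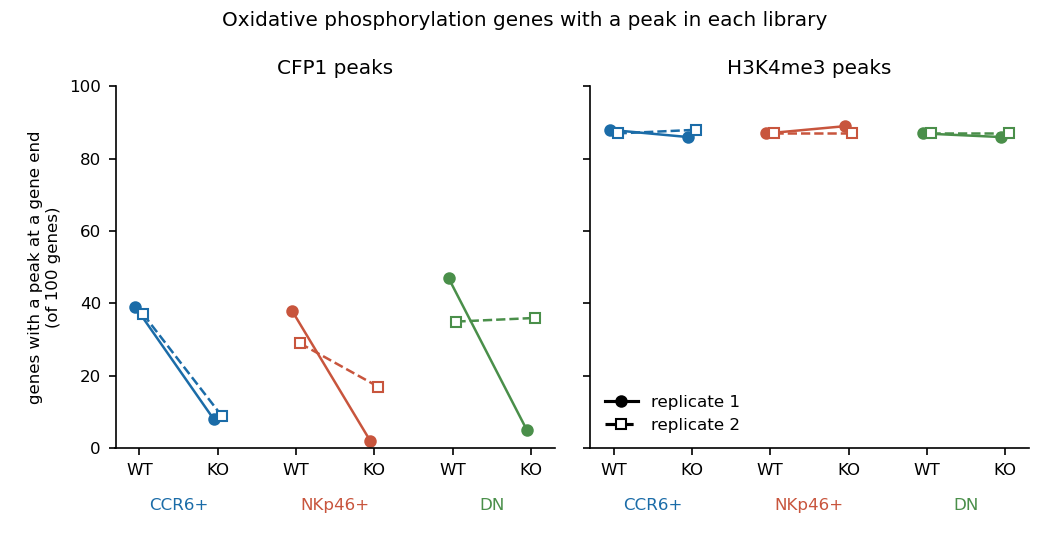
Number of the 100 genes with a CFP1 peak (left) or an H3K4me3 peak (right) at a gene end, on the vertical axis, in each library. Lines join WT and KO libraries of one subset (colour) and replicate number (filled circle and solid line, replicate 1; open square and dashed line, replicate 2). CFP1 was at 29 to 47 genes in WT libraries, 2 to 17 in 5 KO libraries and 36 in KO DN replicate 2, and H3K4me3 was at 86 to 89 throughout.

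The mean number of members with CFP1 was 37.5 ± 5.86 in WT and 12.8 ± 12.4 in KO (SD, n = 6), and KO minus WT was -24.7 with an SE of 6.58 over the 6 pairs. KO was lower in 5 of 6 pairs, and the mean difference was -36.3 in the replicate 1 pairs and -13 in the replicate 2 pairs. Without KO DN replicate 2 and KO NKp46+ replicate 2, the KO mean was 6. Other genes differed in the same direction. Genes with H3K4me3 in all 12 libraries, of which there are 9250, held CFP1 at 49.5% ± 5.13 in WT and 21.4% ± 17.4 in KO. The 84 members among them held it at 44.4% ± 7.01 and 15.3% ± 14.8. Cytosolic ribosomal protein genes (81 genes) went from 39.3 ± 3.44 to 14.2 ± 16.7 members per library and mitochondrial ribosomal protein genes (78 genes) from 30 ± 3.95 to 11.2 ± 8.89. No test was made of a difference between these groups.

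Gene by gene, 59 members held CFP1 in more WT than KO libraries, 4 in more KO libraries, 4 in equal numbers above 0, and 33 in none. The 4 with more KO libraries (Ndufb2, Ndufa9, Ndufb9 and Uqcr10) each had 1 KO library and no WT library. Of the 51 members with CFP1 in 2 to 10 of the 12 libraries, which could be tested, 47 had more WT libraries, a share of 92.2% against 91.2% of all 5738 genes tested. A difference of 4 or more libraries was found at 15 of the 51 members (29.4%) and at 27% of all genes. The members were thus close to the background on both counts.

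**Figure D2:**
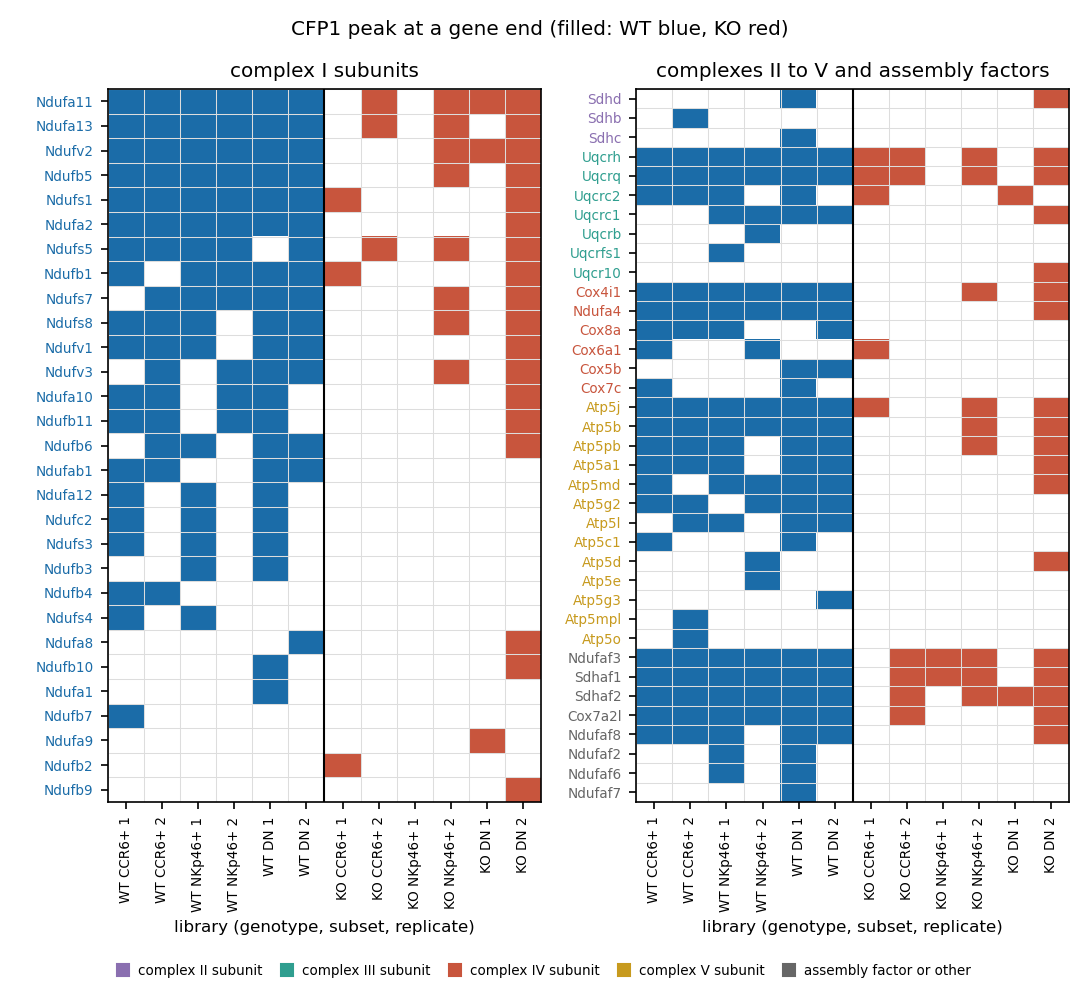
CFP1 peaks at 66 of the genes that held one in any library, with a row per gene and a column per library. A filled cell is a peak at a gene end (blue WT, red KO), and gene names are coloured by complex. The 16 genes filled in all 6 WT columns are also filled in 1 to 4 KO columns, and KO DN replicate 2 is one of them for all 16.

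No member passed Fisher's exact test after Benjamini-Hochberg adjustment over the 5738 genes, where 0% of all genes passed. At an unadjusted p under 0.05, 3 members had fewer KO libraries (5.88% of those tested, background 7.51%) and none had more. These were Ndufa4, Ndufa2 and Atp5g2, each with an exact p of 0.0152 and an adjusted p of 0.202. That test pools the subsets. An exact permutation within subsets kept the same 3 under an unadjusted 0.05. With the replicate block, whose smallest possible p was 0.03125, 0 members and 56 of 5738 genes were under it. Ndufa4, now placed in complex IV despite its name, held CFP1 in all 6 WT libraries and in KO DN replicate 2 alone among KO libraries. Ndufa2, an accessory subunit of complex I, had the same pattern. Atp5g2, a gene for the ring subunit c of ATP synthase, held CFP1 in 5 WT libraries, all but NKp46+ replicate 1, and in no KO library.

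Without KO DN replicate 2, Ndufa2 and Ndufa4 passed (Fisher's exact test, adjusted p = 0.0443), as did 4.89% of all genes, and 12 of 47 members had an unadjusted p under 0.05 (background 23.4%). Without KO NKp46+ replicate 2 alone that number was 6 of 51 (background 16.3%), and without WT NKp46+ replicate 2 it was 9 of 50 (background 12.6%), with 0 members passing after adjustment. When KO DN replicate 2 and KO NKp46+ replicate 2 were both left out, a choice made after seeing the data, 5 of 47 members passed (adjusted p = 0.0344) against 13.9% of all genes, and 18 had an unadjusted p under 0.05 (background 38.3%). They were Atp5b, Cox4i1, Ndufa2, Ndufa4 and Ndufb5, each then with CFP1 in 6 of 6 WT and 0 of 4 KO libraries. The call therefore rested on those 2 libraries. With all 12 libraries the test had little reach: in simulated data, with 200 genes given CFP1 in 6 WT and 0 KO libraries 0% were recovered, and with 600 such genes 100%.

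The promoters of the members with the largest WT minus KO difference that have an entry in the RefSeq promoter table (GRCm38.p6) are printed here, because CFP1 reads CpG. Each is the 250 b before the annotated start, 5′ to 3′ on the gene's strand, with every CG dinucleotide in capitals. That of Ndufa4 is chr6:11907451-11907700, minus strand, and that of Atp5g2 is chr15:102671048-102671297, minus strand. Cox7a2l, with CFP1 in 6 WT and 2 KO libraries, came next by the rank of its WT peaks, and its promoter is chr17:83514334-83514583, minus strand. They hold 10, 19 and 13 CG dinucleotides.
Ndufa4: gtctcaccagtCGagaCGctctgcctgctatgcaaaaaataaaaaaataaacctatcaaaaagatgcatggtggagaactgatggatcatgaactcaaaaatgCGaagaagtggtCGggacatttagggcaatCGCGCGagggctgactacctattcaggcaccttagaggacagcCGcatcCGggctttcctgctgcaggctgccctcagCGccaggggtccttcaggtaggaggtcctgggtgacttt
Atp5g2: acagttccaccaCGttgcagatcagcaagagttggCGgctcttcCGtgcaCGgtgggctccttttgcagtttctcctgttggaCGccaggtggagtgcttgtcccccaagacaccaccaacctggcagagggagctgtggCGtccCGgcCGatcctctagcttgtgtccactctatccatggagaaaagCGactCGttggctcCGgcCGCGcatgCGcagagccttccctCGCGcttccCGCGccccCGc
Cox7a2l: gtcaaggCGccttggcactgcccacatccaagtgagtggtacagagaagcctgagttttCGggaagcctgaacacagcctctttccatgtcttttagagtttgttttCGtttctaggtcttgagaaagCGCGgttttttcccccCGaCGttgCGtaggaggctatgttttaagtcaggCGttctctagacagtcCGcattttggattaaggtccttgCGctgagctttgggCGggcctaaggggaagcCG

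Another 3 promoters are shown for contrast, those of the members with the longest H3K4me3 among the genes that carried the mark in all 12 libraries and had no CFP1 peak in any. Atp5h, a subunit of the ATP synthase stalk, is preceded by chr11:115419920-115420169, minus strand. Ndufaf5, which assembles complex I, is preceded by chr2:140170396-140170645, plus strand, and Uqcr11, a small complex III subunit, by chr10:80406822-80407071, minus strand. These hold 29, 17 and 11 CG dinucleotides, so the Atp5h promoter without a CFP1 peak has more CpG than any of the 3 above.
Atp5h: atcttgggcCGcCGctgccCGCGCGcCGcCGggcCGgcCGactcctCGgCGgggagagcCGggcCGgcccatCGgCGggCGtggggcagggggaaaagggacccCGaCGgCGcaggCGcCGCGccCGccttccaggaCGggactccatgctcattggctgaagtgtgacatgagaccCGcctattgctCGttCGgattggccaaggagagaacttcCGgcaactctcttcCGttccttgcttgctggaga
Ndufaf5: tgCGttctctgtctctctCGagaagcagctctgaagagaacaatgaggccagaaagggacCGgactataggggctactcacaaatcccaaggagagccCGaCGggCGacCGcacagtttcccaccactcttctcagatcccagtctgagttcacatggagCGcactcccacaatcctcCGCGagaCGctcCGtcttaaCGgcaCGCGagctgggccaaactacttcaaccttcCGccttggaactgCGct
Uqcr11: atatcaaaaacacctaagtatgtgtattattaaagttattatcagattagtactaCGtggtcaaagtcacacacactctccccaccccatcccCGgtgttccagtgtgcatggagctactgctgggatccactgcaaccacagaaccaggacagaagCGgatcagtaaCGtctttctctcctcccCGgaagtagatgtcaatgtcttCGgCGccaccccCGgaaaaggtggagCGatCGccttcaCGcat

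Within complex I, CFP1 was found in 4 or more WT libraries at 16 of 37 genes and in all 6 at 6 genes. Ndufs1, which carries iron-sulfur clusters of the electron-input module, held CFP1 in 6 WT and 2 KO libraries. Its WT peaks ranked highest among the members present in all 6 WT libraries, at a median percentile of 97.7 within the lists by fold enrichment. Ndufb5, an accessory subunit, also had 6 and 2. Ndufv1, the NADH-binding flavoprotein subunit, had 5 and 1, and Ndufab1, the mitochondrial acyl carrier protein, had 4 and 0. At the other end, Ndufa11 had 6 and 4, the smallest difference among the complex I genes held by all WT libraries. CFP1 was called in no library at 7 complex I genes: Ndufa3, Ndufa5, Ndufa6, Ndufa7, Ndufb8, Ndufc1 and Ndufs6.

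Complex II had little CFP1. The flavoprotein gene Sdha had none, and Sdhb, Sdhc and Sdhd had 1 WT library each, with 1 KO library at Sdhd. All 4 genes nevertheless held H3K4me3 in all 12 libraries. In complex III, Uqcrh and Uqcrq, both small subunits, held CFP1 in 6 WT and 4 KO libraries, while the Rieske iron-sulfur gene Uqcrfs1 had 1 and 0. CFP1 was absent from KO NKp46+ replicate 1 and KO DN replicate 1 at both Uqcrh and Uqcrq.

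For complex IV, Cox4i1, the common form of subunit 4, held CFP1 in 6 WT and 2 KO libraries and Cox8a in 4 and 0. For complex V, Atp5b, the catalytic beta subunit, had 6 and 2, Atp5a1, the alpha subunit, 5 and 1, Atp5md 5 and 1, and Atp5l 4 and 0. The two-sided p-values by Fisher's exact test missed the threshold for all of these.

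Among the assembly group, Ndufaf3, Sdhaf1 and Sdhaf2 held CFP1 in 6 WT and 4 KO libraries, Cox7a2l in 6 and 2, and Ndufaf8 in 5 and 1. In KO NKp46+ replicate 1, the library with the fewest peaks, Ndufaf3 and Sdhaf1 were the 2 members with CFP1. At the other end, Ndufaf1, Ndufaf4, Ndufaf5, Sdhaf3 and Sdhaf4 had no CFP1 peak.

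By subset, with 2 libraries against 2 and no test, 17 members in CCR6+ cells held CFP1 in both WT and neither KO library, 7 in NKp46+ cells and 4 in DN cells. As shares of the 84 members with H3K4me3 in all 12 libraries these are 20.2%, 8.33% and 4.76%, beside 25.0%, 8.67% and 4.01% of the 9250 genes so marked. No member showed the opposite pattern in any subset. Both WT libraries held CFP1 at 29, 21 and 31 members in CCR6+, NKp46+ and DN cells.

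CFP1 peaks at members lay almost wholly on H3K4me3. Over the 6 WT libraries there were 225 cases of a member with CFP1 in a library, and in 224 the CFP1 peak lay over an H3K4me3 peak from matching cells. In KO all 77 of 77 did. Such cases were not counted over all genes. When only CFP1 peaks over H3K4me3 were counted, 5676 genes could be tested in place of 5738, and 51 members in both cases.

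Windows at annotated gene ends miss a promoter that lies inside the annotated gene, and at 4 of the 82 members with an entry the RefSeq promoter itself (250 b before to 50 b after the start) held CFP1 in more libraries than the gene ends. At 11 it held CFP1 in fewer, such as Uqcrc1, a core protein of complex III (2 WT and 0 KO against 4 and 1), and Ndufc2 of complex I (1 and 0 against 3 and 0). Atp5g3, a further gene for subunit c, had CFP1 at its gene ends in 1 WT library but at its promoter in 6 WT and 0 KO libraries. Anywhere in the gene or its windows, Atp5g3 held CFP1 in 6 WT and 1 KO library. It was the one member of 82 with a promoter entry to show 6 and 0 at the promoter. How many promoters of all genes do so was not counted. With promoters alone, 0 of 4498 genes tested passed Fisher's exact test after adjustment (smallest adjusted p = 0.191). At gene ends, 56 of all 21627 genes and 0 members showed 6 and 0. Cox5a, a subunit of complex IV, had no peak at its ends, yet its promoter held CFP1 in 6 WT and 2 KO libraries and H3K4me3 in all 12. Cox7a2 likewise had H3K4me3 in all 12 at its promoter, with CFP1 in 1 WT library, and Atp5d, the delta subunit of ATP synthase, had CFP1 in 5 WT and 2 KO libraries there against 1 and 1 at its ends. Over the 82 promoters, 50 held CFP1 in more WT libraries and 2 in more KO libraries.

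Counted at the promoter, 73 of the 82 members had H3K4me3 in all 12 libraries. The mark ran further downstream than upstream of the start at 55 of the 75 members where it covered the start in 4 or more WT libraries (73.3%, against 77.0% of 6933 genes). Its median reach was 444 b upstream and 685 b downstream, beside 420.5 and 783.5 b for those genes, which have H3K4me3 in all 12 libraries and such a start. For CFP1, the summit nearest to the start and within 1000 b of it was taken in each library, which partly sets how close it lies. Where at least 4 WT libraries gave one, it lay at a median of 26.5 b downstream of the start over 31 members (range -972 to 496 b). It was within 250 b of the start at 22 (71.0%, against 72.4% of 3191 genes).

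**Figure D3:**
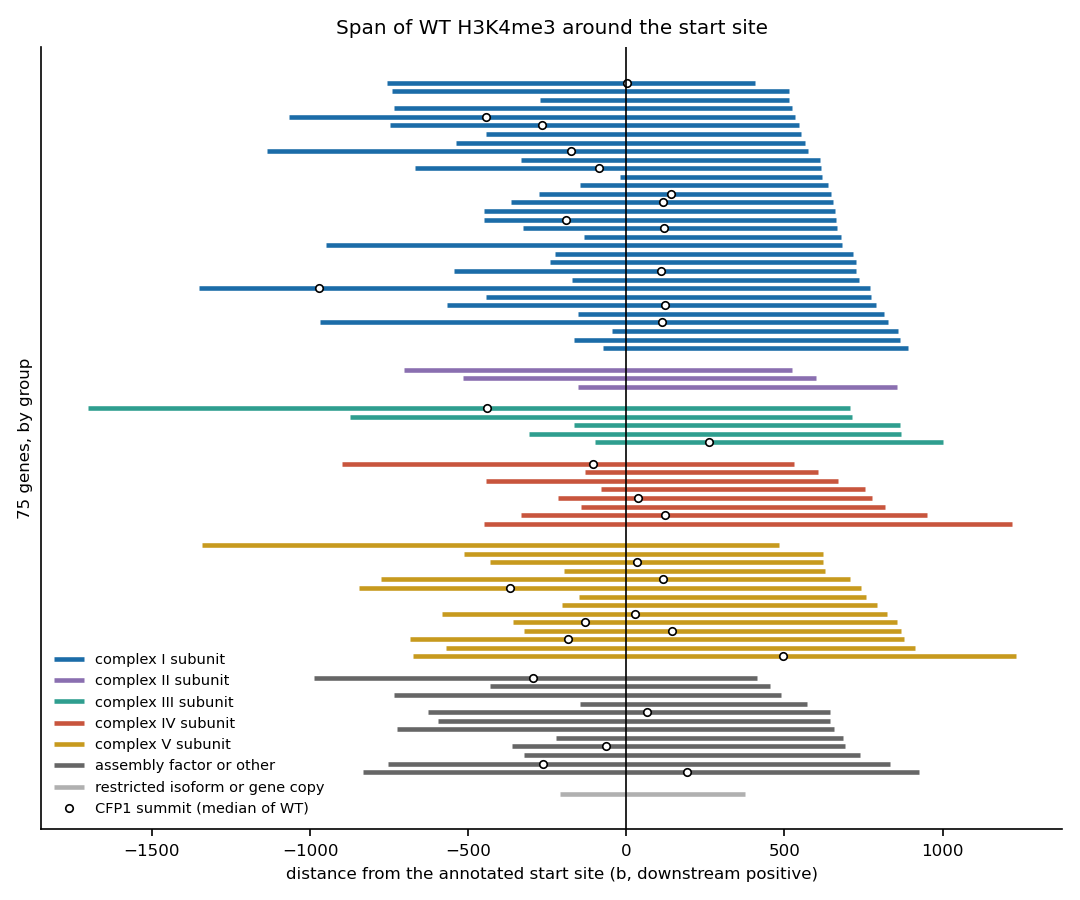
Reach of the WT H3K4me3 peak over the annotated start site at 75 genes, 1 horizontal line per gene, coloured by complex. The horizontal axis is the distance from the start in bases. Open circles mark the CFP1 summit nearest to the start, within 1000 b of it (median over WT libraries, 31 genes). Lines reach a median of 444 b upstream and 685 b downstream, and 22 of the circles lie within 250 b of the start.

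CpG number was also compared between members with and without CFP1. In the 300 b promoter window, members had a median of 20 CG dinucleotides (range 2 to 44, 82 promoters), beside 14 for all 17273 protein-coding promoters and 22 for those of genes with H3K4me3 in all 12 libraries. Members with CFP1 at a gene end in 4 or more WT libraries had a median of 20 (29 promoters), and members with H3K4me3 in all 12 but no CFP1 also had 20 (17 promoters). For all genes with H3K4me3 in all 12, the corresponding medians were 25 (3490 promoters) and 19 (1777). No test was made. The 4 members with 39 or more CG dinucleotides (Ndufv2, Atp5md, Atp5j and Sdhaf2, chosen here for that number) held CFP1 in 5 or 6 WT libraries, each in a window shared with another gene. That cutoff was set after seeing the values. Next by CG number, Cox5a (35) held CFP1 in 0 WT libraries at its ends and 6 at its promoter. Cox6a1 and Atp5h (32 each) held it in 2 and 0 at their ends.

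**Figure D4:**
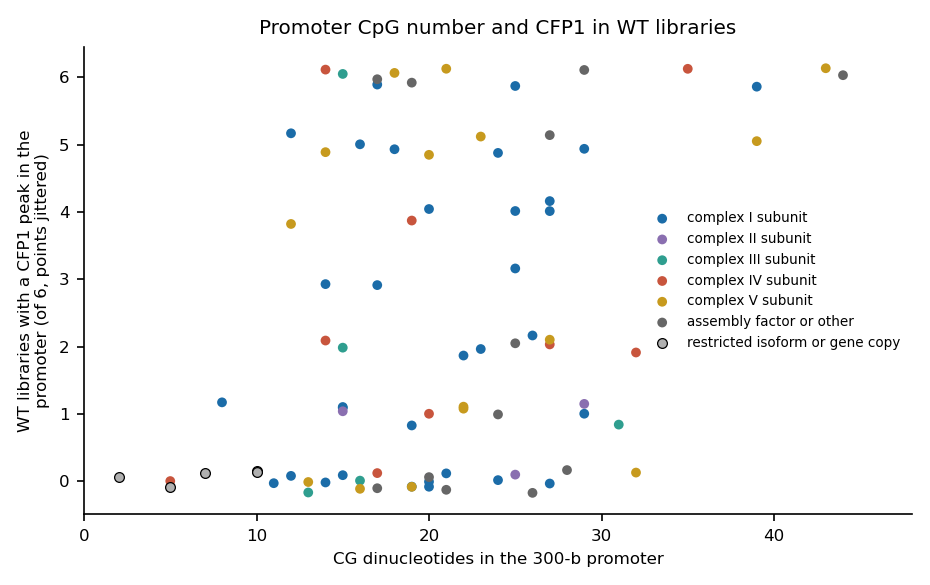
Number of CG dinucleotides in the 300 b promoter (horizontal axis) and number of WT libraries, of 6, with a CFP1 peak in that promoter (vertical axis, jittered) for 82 genes coloured by group. Genes with CFP1 in 4 or more WT libraries span 12 to 44 CG dinucleotides (median 21), and those with H3K4me3 in all 12 libraries and no CFP1 span 11 to 32 (median 20).

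Motifs of the known regulators of these genes were searched on both strands of the 300 b promoters. The NRF1 core GCGCATGCG was in 10 of 82 member promoters (12.2%), against 2.43% of all protein-coding promoters and 4.55% of those with H3K4me3 in all 12 libraries. Its looser form GCGCNNGCG, which contains the core, was in 40.2%, 16.8% and 28.3%. The ETS core CCGGAAG, which GABP binds, was in 25.6%, 12.04% and 21.8%, and AAGATGGC, the YY1 motif, in 12.2%, 3.25% and 5.38%. The SP/KLF box GGGCGG was in 47.6%, 46.9% and 68.2%. Of the genes with a printed promoter, Atp5g2, Ndufaf5 and Uqcr11 held the NRF1 core in the 300 b window, so it occurred both with and without CFP1 peaks. The printed stretch stops before the start and shows the whole core for Atp5g2 alone. At Ndufaf5 and Uqcr11 the match was not wholly inside the printed stretch. A match is a string of letters in the 300 b window and shows no binding.

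Most of the restricted isoforms and gene copies lacked both marks at their ends. None of the 10 held CFP1 at its ends in any library, and 7 had no H3K4me3 at their ends in any: Cox4i2, Cox6a2, Cox7b2, Cox8b, Cox8c, Ndufb4b and Ndufb4c. Of their common counterparts, Cox4i1, Cox6a1, Cox6b1, Cox8a and Ndufa4 had H3K4me3 at their ends in all 12 libraries and Cox7b in 11, all but KO CCR6+ replicate 1. Cox7a2, the common counterpart of Cox7a1, had none at its ends and was marked in all 12 at its promoter. The nearest H3K4me3 peak of any library lay 15846 b from Cox4i2, 30452 b from Cox6a2, 618939 b from Cox7b2, 16136 b from Cox8b and 20441 b from Cox8c.

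The other 3 restricted genes had H3K4me3 in part of the libraries. Cox7a1, the heart and muscle form, held it in 11, all but KO DN replicate 2, and shares a window with Capns1. The promoter of Cox7a1 itself held the mark in 6 WT and 5 KO libraries. Cox6b2, the testis form, held it in 3 KO libraries (CCR6+ replicate 2, NKp46+ replicate 1 and DN replicate 2) and in no WT library, and shares a window with Fam71e2. At its promoter 1 KO library held the mark. Ndufa4l2, known as a hypoxia-induced relative of Ndufa4, held H3K4me3 at its ends in 1 WT and 1 KO library, and anywhere in the gene in 5 WT and 5 KO libraries. Anywhere in the gene, it held CFP1 in 0 WT libraries and 1 KO library. Fisher's exact test over the 1877 genes with H3K4me3 in 2 to 10 libraries could be run on Cox6b2 and Ndufa4l2. Neither passed (smallest adjusted p = 0.961), neither had an unadjusted p under 0.05, and 0% of all genes passed after adjustment. At an unadjusted p under 0.05, 0.799% of all genes had fewer KO libraries and 1.07% had more.

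The promoters of 2 isoform pairs are shown because they differ in the mark: Cox8a (chr19:7217617-7217866, minus strand) with H3K4me3 in 12 libraries and Cox8b (chr7:140900447-140900696, minus strand) with none, and Cox7b (chrX:106015450-106015699, plus strand) in 11 and Cox7b2 (chr5:71548206-71548455, minus strand) with none. The CG dinucleotides in capitals number 11, 1, 5 and 9 in that order. In the first pair the marked promoter has more CpG, and in the second the unmarked one does. The 5 restricted genes with a promoter entry had a median of 7 in the 300 b window.
Cox8a: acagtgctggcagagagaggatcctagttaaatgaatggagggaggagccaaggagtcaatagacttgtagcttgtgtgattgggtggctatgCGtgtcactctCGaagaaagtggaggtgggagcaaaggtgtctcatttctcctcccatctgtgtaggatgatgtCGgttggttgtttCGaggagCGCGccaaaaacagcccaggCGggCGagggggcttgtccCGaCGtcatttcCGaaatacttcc
Cox8b: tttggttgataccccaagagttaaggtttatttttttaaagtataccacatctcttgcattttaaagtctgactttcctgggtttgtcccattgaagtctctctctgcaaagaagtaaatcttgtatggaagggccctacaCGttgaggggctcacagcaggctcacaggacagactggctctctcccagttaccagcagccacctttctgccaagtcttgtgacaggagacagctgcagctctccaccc
Cox7b: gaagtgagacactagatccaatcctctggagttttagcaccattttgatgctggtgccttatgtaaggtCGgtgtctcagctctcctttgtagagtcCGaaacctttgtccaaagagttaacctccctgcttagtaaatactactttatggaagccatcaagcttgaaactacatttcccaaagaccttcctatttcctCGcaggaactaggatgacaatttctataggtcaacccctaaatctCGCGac
Cox7b2: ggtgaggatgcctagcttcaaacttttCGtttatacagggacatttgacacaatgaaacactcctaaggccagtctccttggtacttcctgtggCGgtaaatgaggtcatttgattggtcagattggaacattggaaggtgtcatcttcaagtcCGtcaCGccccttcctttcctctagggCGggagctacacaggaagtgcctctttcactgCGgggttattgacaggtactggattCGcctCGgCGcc

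A pair of common subunit genes also lacked H3K4me3 calls. Ndufa6, a complex I subunit at chr15:82350139-82354291, and Atp5g1, also a gene for subunit c at chr11:96072793-96075694, had no H3K4me3 peak in the gene or at its promoter in any library. The nearest H3K4me3 peak of any library lay 12004 b from Ndufa6 and 7443 b from Atp5g1. Their promoters hold 27 and 16 CG dinucleotides in the 300 b window. Whether reads could be placed at these 2 loci was not tested.

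At the 84 members with H3K4me3 in all 12 libraries, the length of the mark was compared as the log2 of the summed length of the peaks touching a gene's windows, after centring each library on its median. WT means ranged from 705 to 3661 b with a median of 1147 b, beside 1264 b for all 9250 genes. Atp5b had the largest summed length, 3661 ± 220 b (SD, n = 6), in a window shared with Baz2a. Ndufb6 (2976 ± 309 b), Ndufv2 (2322 ± 1208 b), Uqcrh (2286 ± 327 b) and Ndufa13 (2170 ± 110 b) followed, each in a window shared with another gene. Over the start alone, the WT mark reached a median of 358 b upstream and 857.5 b downstream at Atp5b. It reached 538.5 and 566.5 b at Ndufb6 and 566.5 and 791 b at Ndufv2, so the sums of these genes take in peaks away from the start. At Uqcrh it reached 1703 and 706 b and at Ndufa13 1352 and 769.5 b. The shortest marks were at Sdhaf4 (705 ± 103 b), Cox6b1 (713 ± 117 b), Ndufaf6 (745 ± 60.8 b), Ndufs6 (752 ± 156 b) and Ndufb4 (795 ± 75.6 b).

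In KO cells the length of the mark at the members was close to that in WT cells. The median log2 KO over WT was -0.0032 for the 84 members and 0.0045 for all 9250 genes, with 44 members below 0 and 40 above. No member passed limma's test with Benjamini-Hochberg adjustment over all genes (smallest adjusted p = 0.506), where 0.0432% of all genes passed as shorter in KO and 0% as longer. At an unadjusted p under 0.05, 2 members were shorter and 2 longer, against 4.64% and 3.06% of all genes. For 78 of the 84 members the 95% interval lay within 0.5 of 0 on the log2 scale, as for 85.2% of all genes. No member's WT and KO values failed to overlap (background 1.26%). With the replicate number as a block, again no member passed (smallest adjusted p = 0.145), although the genes called over the whole table went from 4 to 27, 0.259% of all as shorter and 0.0324% as longer.

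**Figure D5:**
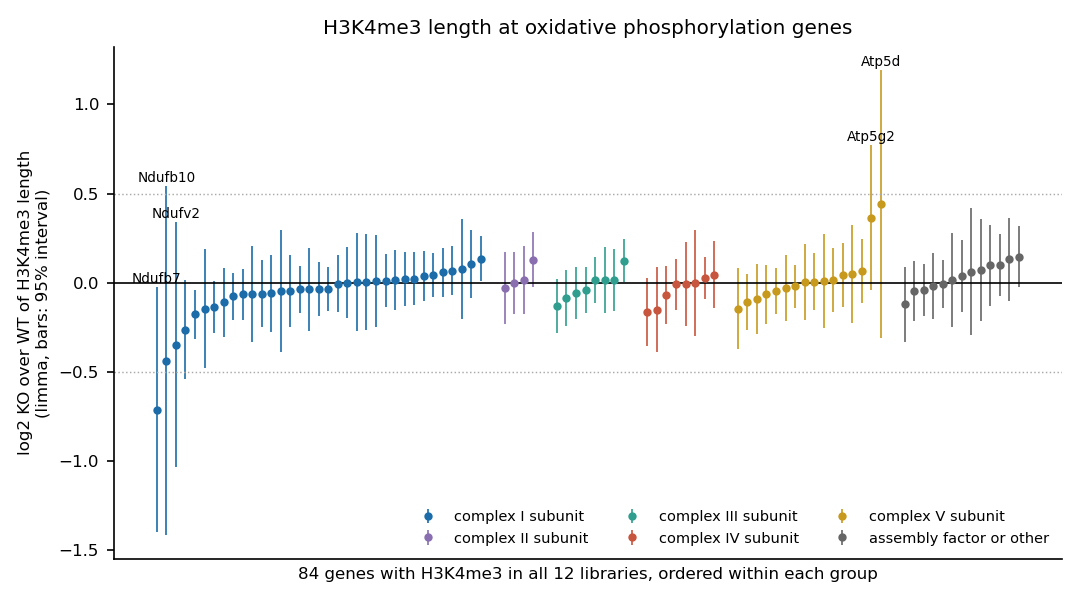
Log2 ratio of KO to WT H3K4me3 length (vertical axis) at the 84 genes with the mark in all 12 libraries, ordered within each group and coloured by group. Points are limma estimates over 12 libraries and bars are 95% intervals, with dotted lines at 0.5 and -0.5. Intervals of 78 genes lie between the dotted lines, and the named genes have the widest.

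In complex I the difference farthest from 0 was at Ndufb7, an accessory subunit whose window is shared with Tecr. The peaks touching its windows covered 822, 604 and 864 b in WT replicate 1 libraries (CCR6+, NKp46+, DN) and 2237, 2412 and 2259 b in WT replicate 2. The KO libraries had 478, 865 and 582 b in replicate 1 and 933, 936 and 949 b in replicate 2. The larger sums were thus found in the 3 WT libraries of replicate 2 alone, and the other 9 values overlapped. In WT the counted peaks spanned chr8:83566547-83573704, past the end of the gene at 83571623. The peak over the start reached a median of 171.5 b upstream and 735 b downstream. The sums therefore included a peak away from the start and do not show a longer mark over it. The log2 KO over WT was -0.71 (SE 0.30, limma unadjusted p = 0.0439, adjusted p = 0.638), and -0.11 with windows of 500 b.

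Ndufb10, second in complex I and sharing a window with Rps2, showed the same kind of step. Its summed length was above 2000 b in WT NKp46+ replicate 2 (2407 b), WT DN replicate 2 (2325 b) and KO DN replicate 2 (2284 b), and 305 to 665 b in the other 9 libraries. In WT the counted peaks ran from 24719380, beyond the gene end at 24722060, to 24724454. Over the start, the WT mark reached a median of 21.5 b upstream and 620 b downstream. The log2 KO over WT was -0.44 (SE 0.43). Leaving out 1 library moved it from -0.77 (without WT NKp46+ replicate 1) to -0.10 (without WT NKp46+ replicate 2), and it was -0.12 with windows of 500 b and -0.049 without KO CCR6+ and KO DN of replicate 1.

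In complex II, Sdhc (0.13, SE 0.067) and Sdha (-0.030, SE 0.090) differed most, and neither passed. Complex III had Uqcr11 at -0.13 (SE 0.067) and Uqcrc2, a core protein, at 0.12 (SE 0.053). Complex IV had Cox6c at -0.16 (SE 0.084) and Cox7c at -0.15 (SE 0.10), which was -0.062 without WT NKp46+ replicate 2 and -0.24 without WT NKp46+ replicate 1. No adjusted p here was under the threshold.

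Complex V held the 2 highest values. The peaks touching the ends of Atp5d covered 794, 276 and 674 b in WT replicate 1 and 1772, 936 and 1574 b in WT replicate 2, beside 465, 1032 and 690 b and 1737, 1674 and 1845 b in KO, in the order CCR6+, NKp46+, DN. In WT they lay within chr10:80137169-80139480, in windows shared with Cbarp and Midn. The start of Atp5d in the promoter table is at 80142275, so these lengths do not measure the mark over that start. The log2 KO over WT for Atp5d was 0.44 (SE 0.33, limma unadjusted p = 0.215, adjusted p = 0.870), and 0.075 when the longest peak alone was measured. With the replicate block, limma gave Atp5d an unadjusted p of 0.00266 and an adjusted p of 0.145. Atp5g2, the gene without CFP1 in any KO library, covered 1356, 838 and 1213 b in WT replicate 1 and 1414, 981 and 903 b in WT replicate 2. In KO it covered 965, 1380 and 643 b in replicate 1 and 1959, 2126 and 1625 b in replicate 2. The 3 KO libraries of replicate 2 lay above every WT library and 2 of the other 3 within the WT range, and the log2 KO over WT was 0.37 (SE 0.18, limma adjusted p = 0.701). It was 0.23 without KO DN replicate 2.

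Of the other 2 genes with the largest CFP1 difference, Ndufa4 covered 1352 ± 248 b in WT and 1313 ± 266 b in KO (SD, n = 6), with a log2 ratio of 0.027 (SE 0.053), and Ndufa2 1185 ± 190 and 1117 ± 143 b, with -0.0051 (SE 0.071). The members with an unadjusted p under 0.05 other than Ndufb7 were Ndufs3 (-0.18, SE 0.061), a complex I subunit, Ndufv1 (0.14, SE 0.056) and Uqcrc2. With the replicate block these 4 became 7, 4 shorter and 3 longer (7.54% and 5.38% of all genes), by the addition of Atp5d, Cox6c and Ndufb9.

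Within subsets, no member passed limma's adjusted threshold for KO against WT in CCR6+, NKp46+ or DN cells (0.0108%, 0.0108% and 0% of all genes passed as shorter, and 0% as longer). The median log2 KO over WT of the members was -0.0020, -0.043 and 0.0025, beside 0.017, -0.021 and 0.018 for all genes. No member passed between WT subsets, where at most 0.0108% of all genes passed in a direction, and the genotype by subset term was passed by 0 members and 0% of all genes. The numbers of members with an unadjusted p under 0.05 were 0, 3 and 1 for KO against WT in CCR6+, NKp46+ and DN cells, beside 3.61%, 6.62% and 2.23% of all genes, 0 in each comparison of WT subsets (1.98%, 1.25% and 1.68%), and 0, 1 and 1 for the interaction terms of NKp46+ against CCR6+, DN against CCR6+ and DN against NKp46+ cells (2.43%, 0.897% and 2.57%).

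Related genes outside the symbol prefixes are given by counts, with no test of the lists. Of 38 further assembly factors of complexes I, III, IV and V, 19 ± 3.16 held CFP1 in WT and 8 ± 6.51 in KO libraries (SD, n = 6). For 28 WT libraries outnumbered KO libraries and for 1 the reverse, and 37 held H3K4me3 in all 12 libraries. Cytochrome c (Cycs), the carrier between complexes III and IV, held CFP1 in 6 WT and 5 KO libraries, and Cyc1, the cytochrome of complex III, in 4 and 1. Of 23 regulators of mitochondrial gene expression, 11.3 ± 2.34 held CFP1 in WT and 6 ± 2.83 in KO, among them Nrf1 (5 WT and 1 KO library) and Tfam (2 and 0), and Yy1 held it in 6 and 6. Of 17 genes of the tricarboxylic acid cycle, 9.67 ± 2.58 held CFP1 in WT and 4.33 ± 3.39 in KO. In these lists no gene passed the adjusted test for H3K4me3 length, and the median log2 KO over WT was 0.016, 0.031 and -0.014 for assembly factors, regulators and the cycle.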

How the data were processed

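CUT&Tag was read in 24 libraries (12 groups of 2 libraries), 1 deposited narrowPeak list each. The submitters' processing notes name fastp 0.19.7, Bowtie2 2.3.5.1, Picard, ChIPseeker 1.28.3, MACS2 2.2.7.1 and the mm10 build. What settings these had, and whether a control library was used, is not given in the sources used here. Each line of the authors' deposited lists gives a peak's position, its summit offset, a fold enrichment over background (ratio), and p and q values as −log10. A score column, also deposited by the authors, was left aside. The smallest −log10 q was 1.30. Fold enrichment served to rank or filter peaks inside 1 list and never to compare lists. A peak not called means none at that library's unknown depth.

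Genes came from RefSeq tables of GRCm38.p6, on 19 autosomes and the X chromosome. Presence was tested per gene by two-sided Fisher's exact tests of 6 WT against 6 KO libraries, over genes present in 2 to 10 of 12, with Benjamini-Hochberg adjustment over all of them and a threshold of 0.05. Length was fitted with limma 3.58.1 (R 4.3.3) on 9250 genes, 6 groups, without a block. Replicate numbers paired the H3K4me3 lengths: deviations from group means of same-numbered libraries correlated at 0.26 to 0.60 over all 15 pairs of groups. Both tests were run on simulated data; the length test recovered 63% of 100 genes changed by 0.5 log2 and 91% of 100 changed by 1 log2 among 9250.

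Members, lists, roles and tests were chosen with earlier results of these data known. Genes were named by a rule: H3K4me3 in fewer than 12 libraries, CFP1 differing by 4 or more libraries or present in 10 or more, the 2 largest length differences per complex, the 5 largest and 5 smallest summed lengths, and isoform pairs. After seeing the values, Atp5g3, Atp5d and Cox5a were described at their promoters, and the complex II genes, Uqcrfs1 and the members with 39 or more CG dinucleotides were added. The second isoform pair printed was tied with Cox7a1 and Cox7a2 in libraries and taken for its larger difference within the gene. One member, 1 marker gene and the driver of the Cre are not reported here by name. Of the 100 members, 82 have a promoter entry; a motif or sequence was read for those alone. Values used Python 3.11.15, pandas 2.3.3 and SciPy 1.17.1. Alternatives changed the window, peak filters, normalization and libraries.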

Additional observations from a re-analysis of the deposited data

Results flagged for a closer look

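By Dixon's criterion for 6 libraries (0.625), 3 of 24 sets of WT or KO values tested had a library far from the other 5, where chance gives about 1 in 20. WT CCR6+ replicate 1 held H3K4me3 at 88 members, and the other 5 WT libraries at 87 each, a difference of a single gene. At Ndufb10 the H3K4me3 length in KO DN replicate 2 was 2284 b, above the other KO libraries. At Sdhc it was 743 b in KO DN replicate 1, the lowest of the KO libraries after centring.

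The mitochondrial genome, which encodes the remaining subunits of complexes I, III, IV and V and was in no comparison above, was covered by peaks in every library. CFP1 lists covered at least 7656 b of it and H3K4me3 lists at least 9099 b, in 2 to 6 peaks per library, KO CFP1 libraries included. No library without antibody was analysed here, so no background level can be set beside these values.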

How the results depend on the processing

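No member was called for H3K4me3 presence, or for H3K4me3 length in any comparison, under any alternative run. For CFP1 presence, where 0 genes passed, 267 genes and 2 members passed without KO DN replicate 2 (leaving out any other library gave 0), and 747 genes and 5 members without that library and KO NKp46+ replicate 2. With the replicate block, CFP1 and H3K4me3 presence gave 0 calls, and labels there share only a number (10 and 6 of 15 correlations over 0.1). The drop in members with CFP1 per library was -20.3 to -31.5 over 21 alternatives.

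The 4 genes called for H3K4me3 length were 0 with the longest peak only, without centring or with windows of 500 b, 1 over genes in 10 or more libraries, 2 at a fold of 5 or more, 16 after quantile normalization, 27 with the replicate block, and 8 without KO CCR6+ and KO DN of replicate 1 (chosen after seeing the data); leaving out each of the 12 libraries gave 1 to 37 and moved the count by over 1.5 times each time. Within subsets, 1 gene became 0 under the first 3 settings, 3 with the replicate block and 2 without those KO libraries (1 to 77 leaving out each). Between WT subsets, 1 became 0 under the first 3 and 2 with the block (0 to 39). The genotype by subset count of 0 ranged from 0 to 18. The members' median log2 KO over WT of -0.0032 moved to -0.077 without centring and -0.049 without those KO libraries (-0.039 to 0.0085 leaving out each). Sdha was at -0.11 without those KO libraries and turned positive without KO CCR6+ replicate 2 (0.049) and without KO NKp46+ replicate 2 (0.0088). The cause of these moves was not tested.

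Depth is unknown, so a missing peak is no measure of absence. The CFP1 test could not reach its threshold for few genes with all 12 libraries. The 95% intervals of length at Ndufa1, Ndufb7, Ndufb10, Ndufv2, Atp5d and Atp5g2 reach beyond 0.5 log2. At 60 members a window is shared with another gene.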
